A study of Mus musculus with 16 samples.

Results

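The collagen genes described here were the 44 rows, of 55573 in the count table, whose Ensembl mouse identifier belonged to a protein-coding gene with a symbol of the form Col, number, a, number. They were sorted by the protein they encode into 11 fibrillar, 8 basement membrane, 5 neuronal or transmembrane, 8 FACIT, 6 beaded filament and 3 short-chain network collagens, with 3 others. RNA came from mouse cerebral cortex at around postnatal day 180, in 16 poly(A)-selected libraries, 4 in each of 4 untreated groups. Aifm1 encodes apoptosis-inducing factor, a mitochondrial protein needed for the respiratory chain. The Aifm1-KI group carried a knock-in Aifm1 allele that lacks arginine 200 (R200 del), and Aifm1-WT were its wild-type littermates. The Hq-mut group carried the Harlequin allele of Aifm1 from the stock B6CBACa Aw-J/A-Aifm1Hq/J, and Hq-WT were its wild-type littermates. The labels gave C57BL/6 as the strain of all groups. They did not say that each library came from a separate animal, so the p-values below measure the spread between these libraries.

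Collagens are extracellular or membrane proteins built from 3 chains wound into a triple helix, and each gene encodes 1 chain. Fibrillar collagens form the ropes of connective tissue, which in the brain lie mainly in the meninges and around large vessels. Type IV collagen forms the mesh of basement membranes, including the sheath around brain capillaries, and collagens XV and XVIII sit at the outer edge of such sheaths. FACIT collagens decorate fibrils, collagen VI forms beaded filaments near cells, and short-chain collagens VIII and X form networks. Collagens XIII, XVII, XXIII and XXV span the cell membrane, and collagen XIX is made by neurons in the adult brain.

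Total counts ran from 10671580 in Hq-WT replicate 3 to 32551594 in Aifm1-KI replicate 2, so that 3 counts, taken as the limit that a count of 0 allows, were worth 0.281 and 0.0922 CPM (a count scaled to its library's size). Aifm1 itself was at 3.32 ± 0.791 CPM in Hq-mut and 23.9 ± 1.25 in Hq-WT (SD, n = 4), and at 23.7 ± 1.84 in Aifm1-KI and 22.7 ± 0.812 in Aifm1-WT. Markers of cortical excitatory neurons summed to between 1606 and 2892 CPM over the 16 libraries. Several libraries stood apart by markers of other tissue. Choroid plexus markers summed to 2865 CPM in Aifm1-KI replicate 2 and 5540 in Hq-WT replicate 2, against at most 382 elsewhere. Striatal markers summed to 627 and 583 CPM in Aifm1-KI replicates 2 and 4 and to 865 in Hq-mut replicate 3, against at most 356 elsewhere. Liver markers summed to 281 and 323 CPM in Aifm1-WT replicates 1 and 2, against at most 37.4 elsewhere. Aifm1-WT replicates 3 and 4, at 37.4 and 26.9 CPM, also lay above every Hq-WT library (6.55 to 9.91). Values without the libraries set apart in this way are given for the main collagen results that they move. Such values are not given for the marker lists or for the genes that build or bind collagen.

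All 44 collagen genes had counts in at least 1 library. Per kilobase of exon, the scale used here to compare levels between genes, the highest was Col6a1, a chain of collagen VI, at 18 ± 4.70 CPM per kilobase (SD, n = 16). It was followed by the type IV chains Col4a2 (14.6 ± 3.57) and Col4a1 (10.7 ± 1.72), whose ranges over libraries overlapped with it and with each other. Col5a1, a minor chain that is built into fibrils of the abundant fibrillar collagens, came next at 7.63 ± 4.32, and the neuronal Col19a1 at 5.14 ± 0.936. Their ranges overlapped as well, since Col5a1 ran from 2.67 to 15.8 CPM per kilobase. The lowest was Col6a6 at 0.0627 ± 0.0244.

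Within classes the level was carried by a few genes. Among fibrillar collagens, Col5a1 stood above Col11a2 (3.73 CPM per kilobase), Col24a1 (1.65) and Col11a1 (1.35), and above the main chains of connective tissue, Col1a1 (1.21), Col1a2 (1.04) and Col3a1 (0.274). Among basement membrane collagens, Col15a1 (1.43) and Col18a1 (0.868) were below Col4a1 and Col4a2, and the other type IV chains lay between 0.0930 (Col4a3) and 0.678 (Col4a5). Among neuronal or transmembrane collagens, Col25a1 (3.55) and Col23a1 (2.82) followed Col19a1, while Col13a1 (0.320) and Col17a1 (0.107) were low. Col25a1 encodes the precursor of a protein found in amyloid plaques.

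Of the summed collagen level per kilobase, basement membrane chains made up 29.6% on average over the 16 libraries (24.8% to 35.0%), beaded filament chains 22.4%, fibrillar chains 19.1% (12.4% to 25.9%), FACIT chains 13.5% and neuronal or transmembrane chains 12.1% (9.46% to 17.4%). The whole sum was 121 ± 18.8 CPM per kilobase in Aifm1-KI and 109 ± 15.6 in Aifm1-WT, against 79.8 ± 10.3 in Hq-mut and 81.7 ± 5.50 in Hq-WT (SD, n = 4). The groups of the Aifm1 line, which ran from 94.5 to 139, did not overlap with those of the Harlequin line, which ran from 64.5 to 86.6. For the fibrillar class the sums were 22.3 ± 4.42, 26.3 ± 6.11, 12 ± 2.41 and 15.4 ± 3.34 in the same order of groups.

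**Figure D1:**
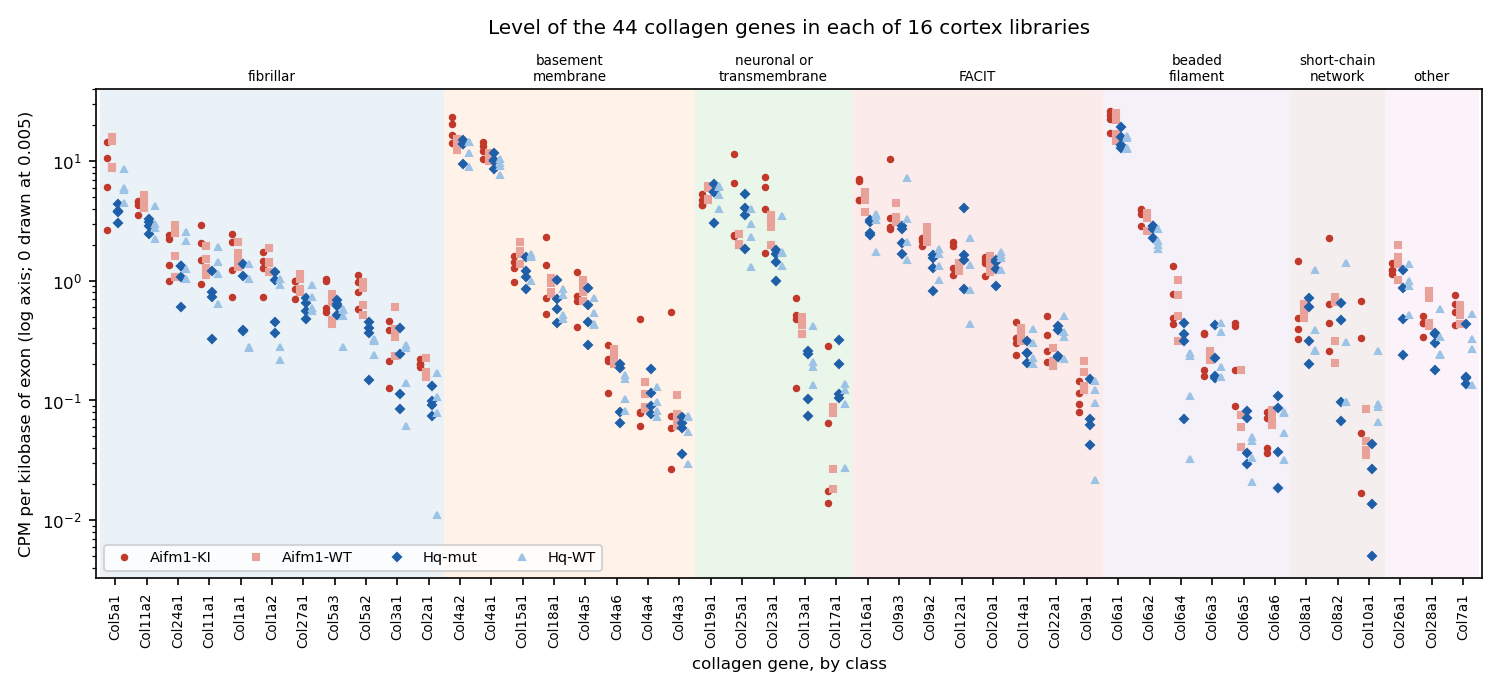
Level of each of the 44 collagen genes in CPM per kilobase of exon (log axis), 1 point per library, with red symbols for the Aifm1 line, blue for the Harlequin line, dark for the mutants and light for the wild types, and shading for the classes; a level of 0 is drawn at the foot of the axis. Col6a1, Col4a2 and Col4a1 stand highest, and blue symbols (Harlequin line) lie below red ones (Aifm1 line) in many fibrillar genes.

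The spread over the 16 libraries differed between genes. Col4a1 varied least, with its highest library 1.89 times its lowest, and Col20a1, Col6a1 and Col19a1 varied by 1.91, 2.10 and 2.12 times. The widest spread among genes with counts in every library was that of Col6a4 (40.6 times), followed by Col8a2 (34.0 times). The lowest Col6a4 value, 0.277 CPM in Hq-WT replicate 3, was near the 0.281 CPM that 3 counts were worth there. Col10a1, which encodes a cartilage collagen, had no count in Hq-mut replicate 2, where a level up to 0.113 CPM could go unseen. Its highest value was 2.13 CPM in Aifm1-KI replicate 2.

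Among the remaining genes with the highest levels in their class, Col6a1 measured 107, 97.8, 74.9 and 115 CPM in Aifm1-KI, 74.4, 111, 96.3 and 64.2 in Aifm1-WT, 84.3, 69.7, 56.2 and 59.7 in Hq-mut and 70.6, 68, 56.3 and 54.9 in Hq-WT. The wild types of the lines overlapped, with the 3 highest of all libraries in the Aifm1 line. Col6a2, which joins Col6a1 in collagen VI, measured 32.9, 30.1, 23.8 and 32.8 CPM in Aifm1-KI, 27.8, 30.7, 29.8 and 21.5 in Aifm1-WT, 18.8, 23.8, 23.7 and 22.5 in Hq-mut and 22.7, 15.5, 17.9 and 16.6 in Hq-WT. Aifm1-WT replicate 4 was the library of the Aifm1 line in which Col6a2 lay below its highest Hq-mut library.

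The fibrillar Col11a2 measured 29.4, 24.2, 31.3 and 31.9 CPM in Aifm1-KI, 27.8, 36, 34.5 and 31.1 in Aifm1-WT, 19.6, 17.1, 22.5 and 21.1 in Hq-mut and 20.4, 15.4, 28.9 and 19 in Hq-WT. Col16a1, a FACIT, measured 32, 47.7, 31.9 and 46 CPM in Aifm1-KI, 25.4, 37.5, 33.9 and 31.7 in Aifm1-WT, 22, 16.4, 17.1 and 20.8 in Hq-mut and 24.4, 11.7, 23.6 and 21.7 in Hq-WT, and no Hq-WT library reached the lowest Aifm1-WT library. Col9a2, which joins Col9a3 in collagen IX, measured 7.08, 6.92, 6.03 and 6.67 CPM in Aifm1-KI, 7.36, 8.03, 8.74 and 6.54 in Aifm1-WT, 2.53, 3.97, 4.81 and 5.07 in Hq-mut and 3.16, 5.14, 5.73 and 4.08 in Hq-WT, and the lines did not overlap. Col7a1 and Col28a1 were low throughout, between 1.39 and 7.76 CPM and between 0.886 and 4.04 CPM.

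The genes of type IV collagen lie in head-to-head pairs in the mouse genome (GRCm38), a layout shown here because the chains of 1 pair are set beside each other below. The starts of Col4a1 (minus strand, to chromosome 8 position 11312826) and Col4a2 (plus strand, from 11312805) overlapped by 22 bases, and those of Col4a6 and Col4a5 on chromosome X lay 1308 bases apart. Only 71 bases separated Col4a4 from Col4a3 on chromosome 1. That interval, chr1:82586850-82586920, read on the minus strand in the direction of Col4a4, held none of the promoter motifs searched, on either strand. The letters searched for the first motif, bound by the basal transcription machinery, were TATAAA. Those of the next, bound by the factor NF-Y, were CCAAT. Those of the last, called the GC box and bound by Sp factors, were GGGCGG. None of these strings contains another.
Col4a4 to Col4a3: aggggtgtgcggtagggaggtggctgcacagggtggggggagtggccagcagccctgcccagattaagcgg

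For comparison, 250 bases before the RefSeq start (GRCm38.p6) are printed for 3 genes that recur in the results, with motif matches on either strand in capitals: Col3a1, a connective tissue collagen (chr1:45311288-45311537, plus strand), Col5a1 (chr2:27886175-27886424, plus strand) and Col25a1 (chr3:130180595-130180844, plus strand). None of the 3 windows overlapped an annotated exon. The Col25a1 window sits at a RefSeq start that lies inside the longer GENCODE gene, whose first base is 130131501.
Col3a1: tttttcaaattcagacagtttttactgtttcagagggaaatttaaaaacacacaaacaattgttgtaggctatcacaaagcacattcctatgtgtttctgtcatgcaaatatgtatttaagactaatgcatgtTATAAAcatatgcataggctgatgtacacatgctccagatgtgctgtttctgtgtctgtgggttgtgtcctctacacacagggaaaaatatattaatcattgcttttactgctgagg
Col5a1: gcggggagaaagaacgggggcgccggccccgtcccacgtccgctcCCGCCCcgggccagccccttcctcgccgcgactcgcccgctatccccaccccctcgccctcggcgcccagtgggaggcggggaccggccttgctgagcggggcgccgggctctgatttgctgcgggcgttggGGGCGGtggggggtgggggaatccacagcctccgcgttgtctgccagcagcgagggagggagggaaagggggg
Col25a1: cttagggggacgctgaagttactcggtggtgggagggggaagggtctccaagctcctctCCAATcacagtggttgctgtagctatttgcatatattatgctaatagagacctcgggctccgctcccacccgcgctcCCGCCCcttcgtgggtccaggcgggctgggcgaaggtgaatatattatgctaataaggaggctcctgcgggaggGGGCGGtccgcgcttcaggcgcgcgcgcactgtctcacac

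The Col3a1 window held 1 match to the first motif. The Col5a1 window held 2 GC boxes, and the Col25a1 window held 2 GC boxes and 1 match to the NF-Y motif. A GC box on the other strand appears in the printed run as its reverse complement. Motifs were also counted in longer windows that ran past the RefSeq start, such as chr1:45311288-45311587 for Col3a1. Over the 38 such windows of the 35 collagen genes that had one, the first motif occurred in 5, the NF-Y motif in 13 and the GC box in 23. The shares of all 32851 windows were 13.6%, 37.4% and 35.7%, beside 13.2%, 34.2% and 60.5% for collagen genes. A match is a string of letters and was not tested as a binding site.

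The first comparison set the R200 del knock-in against its littermates. No collagen gene passed the test (edgeR quasi-likelihood, Benjamini-Hochberg adjusted over 18383 genes), and neither did any other gene, so the share of all genes called was 0%. At an unadjusted p under 0.05, 4 of 42 collagen genes tested stood out, 9.52% beside 11.4% of all genes. All 4 were higher in Aifm1-KI, beside 7.05% of all genes, and none was lower, beside 4.34%. No collagen gene had groups without overlap, beside 2.03% of all genes higher and 2.83% lower. DESeq2 and limma-voom called no collagen gene here either. Col10a1 and Col17a1 were too low to be tested.

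Those 4 genes were the transmembrane Col25a1, the type IV chain Col4a2, the FACIT Col22a1 and the beaded filament chain Col6a5. Col25a1 measured 30.6, 150, 31.0 and 84.6 CPM in Aifm1-KI replicates 1 to 4 and 31.8, 26.2, 25.8 and 25.9 CPM in Aifm1-WT. Replicates 2 and 4 of the knock-in were high and the other two sat at the wild-type level, so the groups overlapped. The fit gave 1.46 ± 0.46 on the log2 scale (SE; edgeR adjusted p = 0.368). It gave 0.18 without these libraries, which also had the high striatal marker sums. All 10 striatal markers were higher in Aifm1-KI, with a median log2 fold change of 1.11. Their part in the Col25a1 value was not tested.

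Col4a2 measured 94.5, 135, 110 and 156 CPM in Aifm1-KI and 82.6, 101, 100 and 95.8 in Aifm1-WT. The difference on the log2 scale was 0.40 ± 0.14 (SE; edgeR adjusted p = 0.383). Its partner chain Col4a1 measured 77.4, 99.3, 90.02 and 109 CPM in the knock-in and 74.4, 87.1, 84.2 and 81.2 in wild type. In both genes replicate 4 of the knock-in was highest, and the groups overlapped. For Col4a2 the difference was 0.12 without knock-in replicates 2 and 4.

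Col6a5 measured 1.69, 4.21, 0.838 and 3.93 CPM in Aifm1-KI and 0.713, 0.565, 0.382 and 1.69 in Aifm1-WT, or 1.73 ± 0.54 higher on the log2 scale (SE; edgeR adjusted p = 0.368). Col22a1 measured 2.38, 4.70, 1.93 and 3.27 CPM against 1.95, 2.50, 1.8 and 1.82, with 0.65 ± 0.27 (edgeR adjusted p = 0.424). Replicates 2 and 4 were again the high knock-in libraries, and without them the log2 fold changes were 0.64 and 0.11.

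By class, the median log2 fold change in the knock-in was -0.090 over 11 fibrillar genes (5 above 0, 6 below), 0.31 over 8 basement membrane genes and 0.51 over the 4 neuronal or transmembrane genes tested, beside 0.0055 over all genes and 0.21 over the 42 collagen genes. Markers of vessel cells lay the other way, with 9 of 10 endothelial markers lower in Aifm1-KI (median -0.26, 4 at an unadjusted p under 0.05) and 9 of 10 pericyte and smooth muscle markers lower (median -0.29). All 10 excitatory neuron markers were lower as well (median -0.28). Without knock-in replicates 2 and 4 the collagen medians were -0.082 (fibrillar), -0.44 (basement membrane) and -0.081 (neuronal or transmembrane). The marker medians were not computed without them. With all libraries 17 of 42 collagen genes lay below 0 (40.5%, beside 48.4% of all genes) and 25 above it (59.5%, beside 51.6%), and without those replicates 29 lay below 0. Among fibrillar genes the smallest p was that of Col5a3, a minor fibrillar chain, at 4.01, 6.78, 3.77 and 7.11 CPM against 2.99, 5.33, 3.22 and 4.49. Its difference of 0.46 ± 0.26 on the log2 scale (SE; edgeR adjusted p = 0.513) was -0.037 without those libraries. Col5a1 ran the other way in both of them. It measured 122, 22.7, 91 and 52 CPM in Aifm1-KI, with replicates 2 and 4 below every Aifm1-WT library (74.5, 134, 124 and 76.6). Its log2 fold change was -0.51 ± 0.44 with all libraries (SE; edgeR adjusted p = 0.668). Over the alternatives run it went from -0.91 to 0.071.

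Among knock-in libraries, several genes were highest in replicate 2, which had the high choroid plexus sum (2865 CPM). That library also had a high striatal sum (627 CPM) and the lowest excitatory neuron sum (1606 CPM). Col4a3 and Col4a4, the head-to-head pair above, measured 5.49 and 5.11 CPM in Aifm1-KI replicate 2, against 0.264 to 0.742 and 0.654 to 0.845 in the other knock-in libraries. Col18a1 was at 16.3 CPM there, against 3.69 to 9.55. The short-chain collagens Col8a1 and Col8a2 were at 11.6 and 10.2 CPM there, against at most 3.86 and 2.88, and Col9a3, a FACIT chain known from cartilage, at 40.1 against at most 12.9. In Hq-WT replicate 2, which had the highest choroid plexus sum, Col8a1 (9.55), Col8a2 (6.37) and Col9a3 (27.9) were again the highest of their group. Col4a3 (0.719), Col4a4 (1.03) and Col18a1 (3.39) were not. The part of choroid plexus tissue in these levels was not tested beyond these values. Col9a3 shares 6.1% of its exon length with Tcfl5 on the opposite strand, whose reads could be told apart only if the counting used strand.

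The second comparison set Hq-mut against Hq-WT within pairs of libraries that share a replicate number. No collagen gene passed the edgeR test, beside 0.0167% of the 17969 genes tested. At an unadjusted p under 0.05, 6 of 42 collagen genes stood out, 14.3% beside 7.97% of all genes. Of these 6, 5 were lower in Hq-mut (11.9%, beside 4.16% of all genes), and 3 of the 5 were fibrillar. The other one was higher (2.38%, beside 3.81%). Without the pairing 1 collagen gene in place of 6 had an unadjusted p under 0.05. In all, 26 of 42 lay below 0 (61.9%, beside 48.4%) and 16 above it (38.1%, beside 51.6%), with a median of -0.075. This balance rested on pair 2, which holds the Hq-WT library with the highest choroid plexus sum. It also holds the Hq-mut library with the lowest summed collagen level of all 16 (64.5 CPM per kilobase). Without that pair 20 of 43 lay below 0 and 23 above it, with a median of 0.063. Without the pairing 22 of 42 lay below 0. DESeq2 called 1 of them, Col5a1, and limma-voom none. Col10a1 and Col6a5 were not tested.

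Col5a1 measured 37.5, 25.6, 32.5 and 31.8 CPM in Hq-mut replicates 1 to 4 and 73.7, 51.0, 48.6 and 38.0 CPM in Hq-WT. Every mutant library was below every wild-type library, though the highest mutant and the lowest wild type lay close together. The ratio of mutant to wild type was 0.509, 0.502, 0.669 and 0.836 in pairs 1 to 4, and the paired difference was -0.73 ± 0.12 on the log2 scale (SE; edgeR adjusted p = 0.371). DESeq2 called it (adjusted p = 0.000243), as did edgeR without the filter on low counts (adjusted p = 2.43e-09). Over the alternatives run the adjusted p went up to 1.0. It was the 1 collagen gene of 42 that was lower without overlap (2.38%, beside 0.723% of all genes), and none was higher without overlap, beside 0.857%. Col5a1 lies on chromosome 2 from 27886425 to 28039514, and its promoter window is printed above.

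Col11a1 and Col24a1, both fibrillar chains, were lower in pairs 1, 2 and 3 and near equal in pair 4. Col11a1 measured 9.42, 4.17, 10.3 and 15.3 CPM in Hq-mut and 24.6, 8.22, 18.4 and 14.6 in Hq-WT, with a paired difference of -0.80 ± 0.21 on the log2 scale (SE; edgeR adjusted p = 0.523). Col24a1 measured 8.13, 4.57, 10.1 and 10.2 CPM against 19.5, 7.91, 16.5 and 9.56, with -0.70 ± 0.20 (edgeR adjusted p = 0.528). Wild-type libraries 1 and 3 were high in both genes, and the groups overlapped.

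Col25a1 was the gene of the 6 that was higher in Hq-mut, at 69.0, 24.0, 46.3 and 52.3 CPM against 38.8, 17.0, 29.9 and 51.3. It was higher in 4 of 4 pairs, with ratios of 1.78, 1.41, 1.55 and 1.02, and the groups overlapped. Pair 2 was the lowest in both groups. Its paired difference was 0.47 ± 0.12 on the log2 scale (SE; edgeR adjusted p = 0.523). Striatal markers summed to 356, 232, 865 and 324 CPM in Hq-mut and 304, 291, 276 and 284 in Hq-WT, and all 10 markers had a log2 fold change above 0 (median 0.74). Hq-mut replicate 3, the highest by striatal markers, was not the highest by Col25a1, and without pair 3 the log2 fold change of Col25a1 was 0.42. In the pairs then left, striatal sums were higher in Hq-mut in pairs 1 and 4 and lower in pair 2. The part of striatal tissue in the Col25a1 value was not tested.

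**Figure D2:**
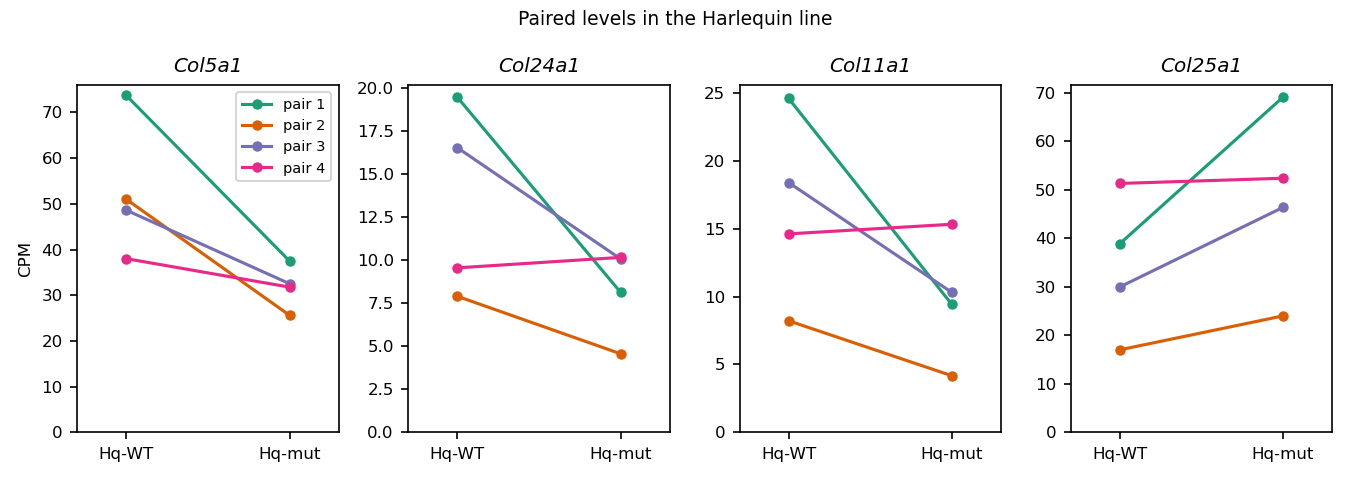
CPM of Col5a1, Col24a1, Col11a1 and Col25a1 in Hq-WT and Hq-mut libraries, with a line joining the libraries of 1 replicate number. Col5a1 is lower and Col25a1 higher in Hq-mut in all 4 pairs, while Col24a1 and Col11a1 are lower in pairs 1 to 3.

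The remaining 2 were Col20a1, a FACIT, at 7.32, 4.69, 7.60 and 6.42 CPM against 8.98, 6.32, 7.95 and 8.45, and Col26a1, at 3.90, 7.07, 1.98 and 10.1 against 8.11, 7.40, 4.25 and 11.2. Both were lower in 4 of 4 pairs, with log2 fold changes of -0.32 ± 0.12 and -0.55 ± 0.20 (SE; edgeR adjusted p = 0.591 for each). In all, 3 of 42 collagen genes were lower in every pair (Col5a1, Col20a1, Col26a1), beside 6.88% of all genes, and 3 were higher in every pair (Col4a1, Col5a3, Col25a1), beside 11.9%. These shares, 7.14% each, were near or below those of all genes.

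No basement membrane collagen had an unadjusted p under 0.05 in the Harlequin line. The median log2 fold change over the 8 genes was 0.0088, with a range from -0.34 to 0.22. The median was 0.15 without pair 2, with 6 of 8 above 0, and -0.019 without pair 3. Col4a1 measured 75.2, 64.3, 88 and 76.5 CPM in Hq-mut and 67.5, 57.6, 77.8 and 72.2 in Hq-WT, and Col4a2 92.9, 62.3, 91.4 and 99.3 against 77.5, 59.3, 95.3 and 96.6. The lowest was Col15a1, at 6.85, 5.40, 7.74 and 10.1 CPM against 6.37, 10.1, 10.3 and 10.6, with a paired difference of -0.34 ± 0.17 on the log2 scale (SE; edgeR adjusted p = 0.656). The ratios of mutant to wild type were 1.08, 0.537, 0.754 and 0.949 in pairs 1 to 4, and without pair 2 the difference was -0.14. The medians were 0.054 for the fibrillar class, in which 6 genes lay above 0 and 5 below, and -0.12 for the 5 neuronal or transmembrane genes, beside 0.0060 over all genes. The fibrillar median turned to -0.054 without pair 1 and to -0.10 without pair 2, and the neuronal or transmembrane median was -0.015 without pair 2. Meningeal fibroblast markers, 12 genes such as Dcn and Slc6a13, had a median log2 fold change of -0.018, with 6 above 0 and 6 below.

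The effects of the mutations were compared in 1 fit over all 16 libraries, which tested the knock-in difference minus the Harlequin difference. No collagen gene passed the edgeR test, beside 0.0105% of the 19129 genes tested, and DESeq2 and limma-voom called none either. At an unadjusted p under 0.05, 4 of 43 collagen genes stood out, 9.3% beside 10.4% of all genes. All 4 had the higher value in the knock-in contrast, beside 5.96% of all genes, and none the lower, beside 4.46%. In all, 27 of 43 lay above 0 (62.8%, beside 51.3%) and 16 below it (37.2%, beside 48.7%). Without knock-in replicate 2, 20 of 43 lay above 0 and 23 below it. The differences were 1.15 ± 0.43 for Col11a1, 1.21 ± 0.50 for Col23a1, 0.87 ± 0.36 for Col22a1 and 0.69 ± 0.31 for Col7a1 on the log2 scale (SE; edgeR adjusted p from 0.450 to 0.477). The smallest p among basement membrane genes was that of Col4a2, with 0.34 ± 0.18 (edgeR adjusted p = 0.509). It was 0.22 without knock-in replicate 4 and 0.071 without knock-in replicates 2 and 4.

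Col23a1, a transmembrane collagen, measured 22.7, 42.6, 9.89 and 34.9 CPM in Aifm1-KI and 16.3, 20.5, 18.8 and 11.4 in Aifm1-WT, with knock-in replicates 2 and 4 high. In the Harlequin line it measured 10.4, 5.68, 8.19 and 9.67 CPM in Hq-mut and 20.1, 10.1, 9.80 and 7.62 in Hq-WT, with wild-type replicate 1 high. Without knock-in replicates 2 and 4 the difference was 0.47 for Col23a1, 0.54 for Col11a1, 0.34 for Col22a1 and 0.39 for Col7a1. The class medians of the difference were 0.11 (fibrillar), 0.22 (basement membrane) and 0.77 (neuronal or transmembrane) with all libraries, and -0.051, -0.49 and -0.050 without these libraries.

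The last comparison set the wild types of the lines against each other. Both serve as controls above, so its values are not independent of the other comparisons, and line, stock and any difference in handling of the lines cannot be told apart. Collagen genes were lower in Hq-WT than in Aifm1-WT across most of the family. The log2 fold change was below 0 for 36 of 42 genes (85.7%, beside 49% of all genes), and the median was -0.48, beside 0.0046 over all genes. The other 6 lay above 0 (14.3%, beside 51%). At an unadjusted p under 0.05, 22 of 42 stood out (52.4%, beside 12.7%), of which 21 were lower (50%, beside 7.73%) and 1 was higher (2.38%, beside 5%). The edgeR test called 1 collagen gene, Col5a2, beside 0.558% of the 18106 genes tested.

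The class with the lowest median was the fibrillar one. All 11 fibrillar genes lay below 0, with a median of -0.96, and 8 had an unadjusted p under 0.05. Col5a2, a chain of collagen V, measured 2.99, 2.31, 3.05 and 3.11 CPM in Hq-WT and 4.99, 8.27, 9.40 and 6.05 in Aifm1-WT, with no overlap. It fell by 1.33 ± 0.22 on the log2 scale (SE; edgeR adjusted p = 0.0286), and it was also called by limma-voom (adjusted p = 0.0432) and DESeq2 (adjusted p = 1.85e-05). The call was lost without Aifm1-WT replicate 2 (adjusted p = 0.123), Aifm1-WT replicate 3 (0.0716) or Hq-WT replicate 1 (0.0917). Over all alternatives its edgeR, voom or DESeq2 adjusted p ran from 1.85e-05 to 0.123.

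Col5a1, its partner chain, measured 73.7, 51.0, 48.6 and 38.0 CPM in Hq-WT and 74.5, 134, 124 and 76.6 in Aifm1-WT, again with no overlap, and a difference of -0.96 ± 0.23 on the log2 scale (SE; edgeR adjusted p = 0.109). The chains of collagen I, Col1a1 and Col1a2, were at -1.21 ± 0.44 and -1.30 ± 0.41, and Col3a1 at -1.06 ± 0.42 (edgeR adjusted p from 0.214 to 0.327). Col1a2 measured 2.72, 3.49, 11.4 and 12.9 CPM in Hq-WT and 17.9, 17.6, 23.5 and 14.8 in Aifm1-WT. Hq-WT replicates 1 and 2 were far below replicates 3 and 4, and in Hq-mut, at 5.61, 4.57, 14.7 and 12.5 CPM, replicates 1 and 2 were low as well. Col3a1 showed the same split, at 0.598, 1.39, 2.87 and 2.72 CPM in Hq-WT and 1.11, 0.834, 3.96 and 2.41 in Hq-mut.

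Markers of meningeal fibroblasts, the cells that make most fibrillar collagen around the brain, were lower in Hq-WT as well. Their summed level was 29.1, 35.6, 70.9 and 51.6 CPM in Hq-WT and 104, 92.0, 110 and 77.7 in Aifm1-WT. All 12 markers were lower in Hq-WT, with a median log2 fold change of -1.26, and 10 of them had an unadjusted p under 0.05. One, Foxc2, was at 0 in 2 libraries of the Harlequin line, and the other 11 had counts in all 16. None passed the edgeR test after adjustment. In Hq-mut the sums were 22.9, 22.4, 72.1 and 61.4 CPM, low in the same replicates as Col1a2 and Col3a1. Among Aifm1-KI libraries replicate 3 was low at 28.8 CPM, beside 87.7, 128 and 111, and it was also lowest in Col1a1, Col1a2 and Col3a1. Col5a1 did not follow the marker sums in this way. In Hq-WT it was highest in replicate 1 (73.7 CPM), which had the lowest sum of that group. In Aifm1-KI it was lowest in replicate 2 (22.7 CPM), which had the highest sum. In Hq-mut both Col5a1 and the sum were lowest in replicate 2. The part of meningeal tissue in the collagen differences was not tested. In whole cortex, fewer cells of a type and less RNA per cell cannot be told apart.

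**Figure D3:**
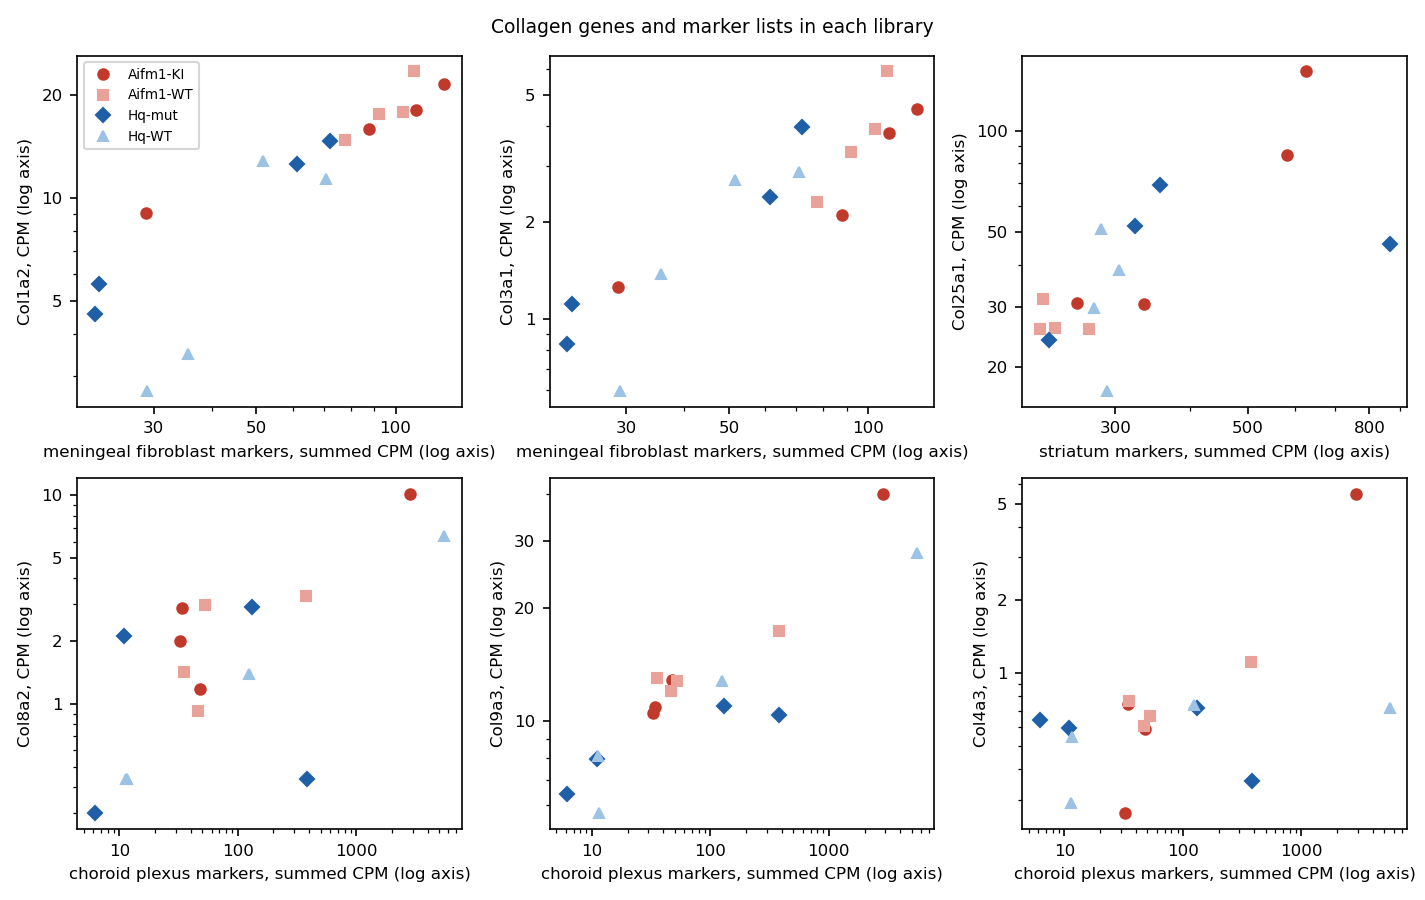
CPM of a collagen gene against the summed CPM of a marker list in the same library (both log axes), 1 point per library, with symbols for the 4 groups. Col1a2 and Col3a1 are low in the libraries with few meningeal marker counts, Col8a2 and Col9a3 are high in the 2 libraries with most choroid plexus marker counts, and Col4a3 is high in 1 of those.

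Other classes were lower in Hq-WT too. All 8 basement membrane genes lay below 0, with a median of -0.37, and 4 had an unadjusted p under 0.05: Col4a6 (-0.96 ± 0.26), Col4a5 (-0.74 ± 0.21), Col18a1 (-0.48 ± 0.21) and Col4a1 (-0.26 ± 0.10), with edgeR adjusted p from 0.146 to 0.361. Col4a6 measured 0.653, 0.822, 1.29 and 1.21 CPM in Hq-WT and 2.14, 1.86, 2.02 and 1.60 in Aifm1-WT, with no overlap. Beaded filament chains included Col6a4 (-2.0 ± 0.46; edgeR adjusted p = 0.0943), Col6a2 (-0.60 ± 0.15) and Col6a1 (-0.48 ± 0.16). Col6a4 measured 0.925, 2.11, 0.277 and 1.99 CPM against 4.37, 6.54, 8.74 and 2.67. Its 0.277 CPM in Hq-WT replicate 3 was near the worth of 3 counts in that library (0.281 CPM).

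Among FACIT genes Col9a2 (-0.78 ± 0.19) and Col16a1 (-0.67 ± 0.21) were lower without overlap, and Col22a1 was the gene of the family that was higher at an unadjusted p under 0.05, at 4.68, 3.13, 2.03 and 3.45 CPM in Hq-WT against 1.95, 2.50, 1.8 and 1.82 (0.72 ± 0.24; edgeR adjusted p = 0.244). In all, 7 collagen genes were lower without overlap (16.7%, beside 4.59% of all genes): Col1a2, Col4a6, Col5a1, Col5a2, Col6a4, Col9a2 and Col16a1. None was higher without overlap, beside 2.69%.

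Neuronal or transmembrane collagens had a median of -0.021, with 2 genes above 0 and 3 below. The neuronal Col19a1 measured 42.7, 27.6, 35.9 and 41.6 CPM in Hq-WT and 32.7, 40.9, 42.3 and 33.4 in Aifm1-WT, so that the groups overlapped throughout. Col13a1 had the smallest p of the class, at 0.870, 0.616, 1.94 and 0.971 CPM against 2.28, 1.65, 1.97 and 1.65 (-0.85 ± 0.32; edgeR adjusted p = 0.294). All 8 liver markers tested were lower in Hq-WT (median log2 fold change -5.39). Aifm1-WT replicates 1 and 2 (highest liver marker sums) and Hq-WT replicate 2 (choroid plexus markers) were then left out. In that set 35 of 42 collagen genes lay below 0, with a median of -0.44, and the fibrillar median was -0.53. There 13 of 42 collagen genes had an unadjusted p under 0.05, beside 1447 of all 18406 genes tested. The Aifm1-WT libraries kept, at 37.4 and 26.9 CPM, were still above Hq-WT in liver markers. No collagen gene was called in that smaller set, in which Col5a2 was at -1.32 (edgeR adjusted p = 0.105).

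**Figure D4:**
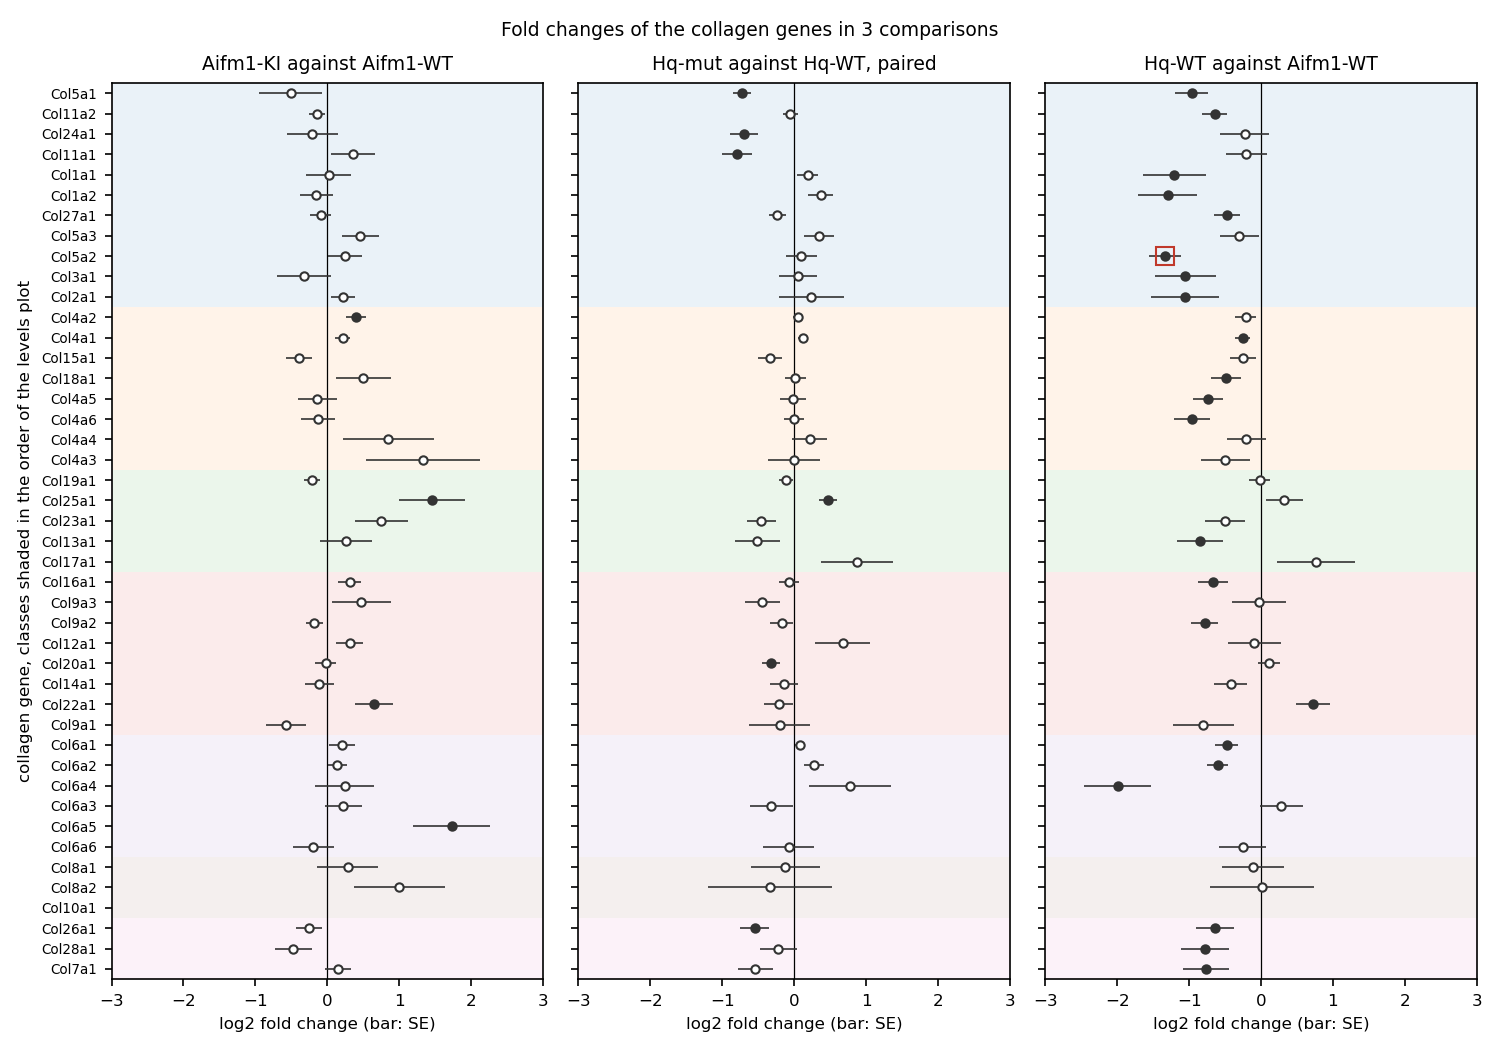
Log2 fold change of each collagen gene in 3 comparisons (points; bars are the SE), with genes in the order of classes used in the plot of levels. Filled points have an unadjusted p under 0.05, the red square marks an adjusted p under 0.05, and a missing point was not tested. In the right-hand panel 36 of 42 points lie left of 0.

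Markers of vessel cells differed less between the wild types than meningeal ones. All 10 pericyte and smooth muscle markers were lower in Hq-WT, with a median log2 fold change of -0.29, and 8 of 10 endothelial markers were higher, with a median of 0.13. The collagen genes were longer and richer in GC than other genes (median exon length 7542 bases beside 3858, median GC 55.1% beside 49.2%). In the fifth of all genes with the highest GC content the median log2 fold change between the wild types was -0.025, and in the fifth with the longest exons -0.0073.

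Genes that build, export, crosslink and bind collagen were counted in 5 lists, and none of their members was called in any of the 4 comparisons. Among 14 genes of collagen hydroxylation and glycosylation, the smallest p in the knock-in comparison was that of the prolyl hydroxylase subunit P4ha3 (0.50 ± 0.23). In the Harlequin line it was that of P3h3 (-0.36 ± 0.09, edgeR adjusted p = 0.523), at 18.8 ± 1.12 CPM in Hq-mut and 23.9 ± 3.51 in Hq-WT (SD, n = 4), and 10 of the 14 lay below 0. Of 11 measured genes of folding and export, 5 lay above 0 and 6 below in the Harlequin line, where Ppib, a prolyl isomerase of the endoplasmic reticulum, was at -0.23 ± 0.08.

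Among genes of propeptide cleavage and crosslinking, Pxdn, the peroxidase that crosslinks type IV collagen, had the smallest p in the Harlequin line (-0.53 ± 0.10, edgeR adjusted p = 0.523), at 80.0 ± 22.8 CPM against 113 ± 28.6. Between the wild types it was Adamts2, which removes the propeptide of fibrillar collagens (-0.69 ± 0.15, edgeR adjusted p = 0.0732), at 8.22 ± 1.54 CPM in Hq-WT and 13.2 ± 1.58 in Aifm1-WT, and 10 of 13 tested genes of that list lay below 0. Of 9 tested collagen receptors, the one with the smallest p was Adgrg1, a receptor for collagen III, in the knock-in (0.40 ± 0.14) and the integrin Itga10 between the wild types (-0.70 ± 0.21), where 6 lay below 0.

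Among 15 laminins, nidogens, perlecan and agrin, all 15 lay below 0 between the wild types, with a median of -0.34, and 5 had an unadjusted p under 0.05. In the Harlequin line the median was -0.051, and perlecan (Hspg2) was higher in Hq-mut, at 14.2 ± 5.74 CPM against 9.08 ± 2.53, a paired difference of 0.57 ± 0.12 on the log2 scale (SE; edgeR adjusted p = 0.523). In the knock-in the median was 0.0014, and Lamb1 had the smallest p (0.80 ± 0.25, edgeR adjusted p = 0.368).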

How the data were processed

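The deposited table held raw whole-number counts per Ensembl gene for 16 libraries. Per the labels and the submitters' processing notes, the authors sequenced 51-base single-end reads on a HiSeq 4000, aligned them to mm10 with STAR 2.6 and counted with HTSeq. For the counting step, the version, gene annotation and use of strand were not stated in the labels or notes. Symbols, positions and exon lengths came from GENCODE M21 (GRCm38), which matched 55480 of 55573 rows, and promoter sequences from RefSeq (GRCm38.p6).

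Each comparison was tested with edgeR 4.0.16 (R 4.3.3) by the quasi-likelihood F-test, with TMM factors, filterByExpr by group and Benjamini-Hochberg adjustment over all genes tested, and was called at an adjusted p under 0.05. CPM were TMM-scaled over 16 libraries, and the SE of a log2 fold change was its size divided by the square root of F. DESeq2 1.42.0 and limma-voom (limma 3.58.1), other size factors, no filter, the replicate block, other class definitions and leaving out libraries were alternatives. The script was tested on simulated data. Total counts of 10671580 to 32551594 per library set the precision, and the limit for a count of 0 covers counting error only.

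The Harlequin comparison used the replicate number as a block. Deviations of same-numbered Hq libraries from their group means correlated at 0.431, 0.534, 0.409 and 0.453, each library best with its own number, while the labels do not state what a number shares. The Aifm1 line (-0.025 to 0.099) was not paired. No 2 libraries of a group agreed within counting noise (chi-square per gene from 3.23 to 85.1).

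The collagen genes, their classes and the pathway and marker lists were chosen with earlier results of these data known. Members were named if called, if among the 3 highest per kilobase in a class, or if they had the smallest p of the fibrillar, basement membrane or neuronal or transmembrane class. Naming those at an unadjusted p under 0.05, those that follow choroid plexus or meningeal markers, the promoters shown and 2 alternatives was chosen after values were seen. Of each pathway list the member with the smallest p was named in the comparisons described, except 1 that is not reported here. 1 listed gene, Ctage5, was not matched. The marker lists not described in the report moved as follows between the wild types: the median log2 fold change was -0.10 for astrocytes, -0.12 for microglia, -0.49 for oligodendrocytes, -0.04 for their precursors, 0.12 for inhibitory neurons, -0.55 for hippocampus, -0.28 for thalamus and 0.03 for blood.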

Additional observations from a re-analysis of the deposited data

Results flagged for a closer look

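Among 4 libraries of a group, 1 was far from the other 3 in 10 of the 120 groups of values examined (26 named collagen genes, 3 classes and the whole family in 4 groups each), where chance gives about 1 in 20. Of these, 5 lay in the libraries with the highest choroid plexus marker sums: Aifm1-KI replicate 2 held Col8a1 at 11.6 CPM (others 2.57 to 3.86) and Col9a3 at 40.1 (10.5 to 12.9), and Hq-WT replicate 2 held Col8a1 at 9.55 CPM (2.04 to 3.05) and Col8a2 at 6.37 (0.435 to 1.39). In Hq-WT replicate 2 Col5a2 was low, at 2.31 CPM (2.99 to 3.11). The part of choroid plexus tissue was not tested. In Hq-WT replicate 1, Col10a1 was high at 0.816 CPM (0.205 to 0.291) and Col15a1 low at 6.37 (10.1 to 10.6). Col7a1, the anchoring fibril collagen, was high in Hq-mut replicate 4 at 4.52 CPM (1.41 to 1.62). Col25a1 was high in Aifm1-WT replicate 1 at 31.8 CPM (25.8 to 26.2), a small step in a tight group. The summed level of all collagen genes was low in Hq-mut replicate 2, at 64.5 CPM per kilobase (83.4 to 86.6).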

How the results depend on the processing

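The replicate block is part of the Harlequin fit because same-numbered libraries deviated together. Without a replicate block that fit called 3 genes, as with it, with 1 collagen gene in place of 6 at an unadjusted p under 0.05. With the block, the knock-in fit called 0 genes and the fit between wild types 99, Col5a2 among them (adjusted p = 0.0497). The difference between the mutations called 2 genes without the block and 2 with it in both lines, so the block or the pairing changed no collagen call.

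DESeq2 called 82 genes in the knock-in, where edgeR called 0 (2094 at an unadjusted p under 0.05, and limma-voom 0). It called 32 in the Harlequin line, 18 for the difference and 421 between the wild types, with 1 collagen gene in the Harlequin line and 7 between the wild types. Without the filter on low counts edgeR called 368 genes and 6 collagen genes in the Harlequin line and 560 genes and 9 collagen genes between the wild types, and the knock-in median of neuronal or transmembrane genes was 0.74. That median was 0.75 for transmembrane genes alone and 0.89 without Aifm1-WT replicates 1 and 2.

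Without Aifm1-KI replicates 2 and 4 the knock-in medians were -0.19 (all collagen genes), -0.44 (basement membrane) and -0.081 (neuronal or transmembrane), Col5a3 turned to -0.037, and the medians of the difference between the mutations were -0.069, -0.49 and -0.050. Without Aifm1-WT replicates 1 and 2 and Hq-WT replicate 2, 43 genes and 0 collagen genes were called between the wild types, and the fibrillar median was -0.53. Leaving these libraries out of the wild-type comparison, and the knock-in libraries out of the difference, was chosen after seeing the data.

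Leaving out each library in turn gave 0 to 46 called genes in the knock-in (46 without Aifm1-KI replicate 3) and medians from -0.029 to 0.23 (all collagen genes), -0.20 to 0.39 (basement membrane) and 0.22 to 1.0 (neuronal or transmembrane), the lowest of each without Aifm1-KI replicate 2. Leaving out each Hq pair gave 1 to 4 called genes and medians from -0.12 to 0.063 (all collagen genes), -0.10 to 0.073 (fibrillar), -0.019 to 0.15 (basement membrane) and -0.19 to -0.015 (neuronal or transmembrane). For the difference the medians ran from -0.085 to 0.31 (basement membrane) and 0.39 to 1.03 (neuronal or transmembrane). Between the wild types 32 (without Aifm1-WT replicate 2) to 231 (without Hq-WT replicate 3) genes and 0 to 2 collagen genes were called, and the medians ran from -0.61 to -0.38 (all collagen genes), -1.07 to -0.65 (fibrillar), -0.49 to -0.31 (basement membrane) and -0.097 to 0.12 (neuronal or transmembrane). Col5a2 kept its direction between the wild types in every alternative run. The causes of these shifts were not tested. Low levels limit the genes near 1 CPM, such as Col10a1 and Col17a1.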
